A study of Branchiostoma belcheri with 3 samples.

Results

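A group of 5 miRNA families of the amphioxus array, miR-71, miR-242, miR-252, miR-278 and miR-4057, had a probe from amphioxus and a probe from another invertebrate deuterostome, but none from the species listed as vertebrate. A family was the name of a miRNA up to the end of its number. It was kept when it had a probe of Branchiostoma belcheri (prefix bbe) or Branchiostoma floridae (bfl) and one of an acorn worm (sko), a sea urchin (spu) or a tunicate (cin, csa or odi). It was dropped when it had a probe with the prefix dre (zebrafish), xtr (a clawed frog), xbo or pma (sea lamprey). These 5 of 667 families held 23 of the 1686 miRNA probes. The rule itself used names only and no measured value, but it was set with earlier results of these data known.

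Small RNA below 300 nt from the gill, the intestine and the hepatic caecum of B. belcheri, a marine filter feeder without a backbone, was stained with Cy3 and read on 3 arrays, 1 per organ. Each sample was RNA of 5 adults, so the animals' own spread was not measured and array and tissue cannot be told apart. The gill of amphioxus is the slit pharynx that filters food, and the hepatic caecum is a blind pouch of the gut that is often set beside the vertebrate liver. A single array per tissue allows no test of a difference, and every error below comes from repeat spots alone. For a density it is the SD of the 2 spots of a probe on 1 array. For a log2 difference, or a gap between probes, it combines the spot SDs of the arrays and probes compared.

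A miRNA is cut from a hairpin precursor, whose arms give a 5p and a 3p product, and one arm usually accumulates. The seed, bases 2 to 8 of the miRNA, guides it to its target messages, and families are kept together by their seeds over long evolutionary times. The families miR-71, miR-252 and miR-278 are known from protostomes such as flies and worms as well as from invertebrate deuterostomes, and have no known vertebrate counterpart. In the nematode Caenorhabditis elegans, miR-71 is known for extending lifespan, and in the fly Drosophila, miR-278 is known for its part in insulin response and energy balance.

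The targets of the probes on which the results turn are shown here 5′ to 3′, as the files give them, with the seed in capitals. The first set shows both arms of miR-71 and its counterparts in other species, all of which gave signal.
bfl-miR-71-5p: uGAAAGACauggguagugagau
sko-miR-71: uGAAAGACacagguagugagau
spu-miR-71: uGAAAGACauggguagugagauu
bfl-miR-71-3p: cCCAUUUCccugucuuucaaca

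The next set shows miR-252, where probes that differ at few bases gave different readings. The amphioxus probes of miR-252b come first, then the acorn worm and sea urchin probes of that name, then miR-252a.
bbe-miR-252b-5p: uGCUAAGUaguacugccgcaggga
bfl-miR-252b-5p: cUAAGUAGuacugccgcagggag
sko-miR-252b: cUAAGUAGuagugccgcagguaa
spu-miR-252b: cUAAGUAGuagugccgcaggua
bfl-miR-252a: cUAAGUACuagugccgcaggugu
sko-miR-252a: cUAAGUACuagugccgcaggagu

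The last set shows miR-278, which was read in gill.
bfl-miR-278: uCGGUGGGguuuucguucgagu
sko-miR-278: uCGGUGGGacuuucguucguuu
spu-miR-278-3p: uCGGUGGGacuuucguucgauu

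The 23 targets carried 13 seeds, of which 6 were shared by more than 1 of them. None of the other miRNA probes on the array (0) had one of these seeds. Positions below count from 1 at the 5′ end of the B. floridae target, and the base of B. floridae comes first. The spu-miR-71 target is that of bfl-miR-71-5p with 1 more base at its 3′ end, whereas sko-miR-71 differs by U10C and G11A. For miR-278 the sea urchin target differs by G9A, U10C and G21U and the acorn worm target also by A20U. For miR-252b both differ from bfl-miR-252b-5p by C11G and G21U, and sko-miR-252b by G23A too. The B. belcheri target bbe-miR-252b-5p begins 2 bases upstream and is identical to that of B. floridae over all 22 bases that they share. Only miR-252 had B. belcheri probes (2), so the other 4 families were read through sequences of other species.

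Detection was considered first. A probe was counted as detected if its 2 spots averaged above a limit taken from the 304 blank spots, namely their mean plus 3 of their SDs. These thresholds were 139 in gill, 220 in intestine and 618 in hepatic caecum, so a probe had to be brightest in the caecum to be counted. The SDs of the blank spots were 10.6, 34.9 and 144 on these arrays. In hepatic caecum the blank spots had a mean of 185 and a lower median of 156. In gill 10 of the 23 probes were detected, where 27.0% of all miRNA probes were. In intestine 6 of the 23 were detected (11.9% of all probes) and in hepatic caecum 3 (7.18%). The 10 probes came from 3 families. All 4 miR-71 probes, 3 of the 9 miR-252 probes and 3 of the 4 miR-278 probes were detected in gill, and none of the 3 miR-242 and 3 miR-4057 probes (0) was detected on any array. In bulk tissue, fewer cells of a type and less miRNA per cell cannot be told apart.

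**Figure D1:**
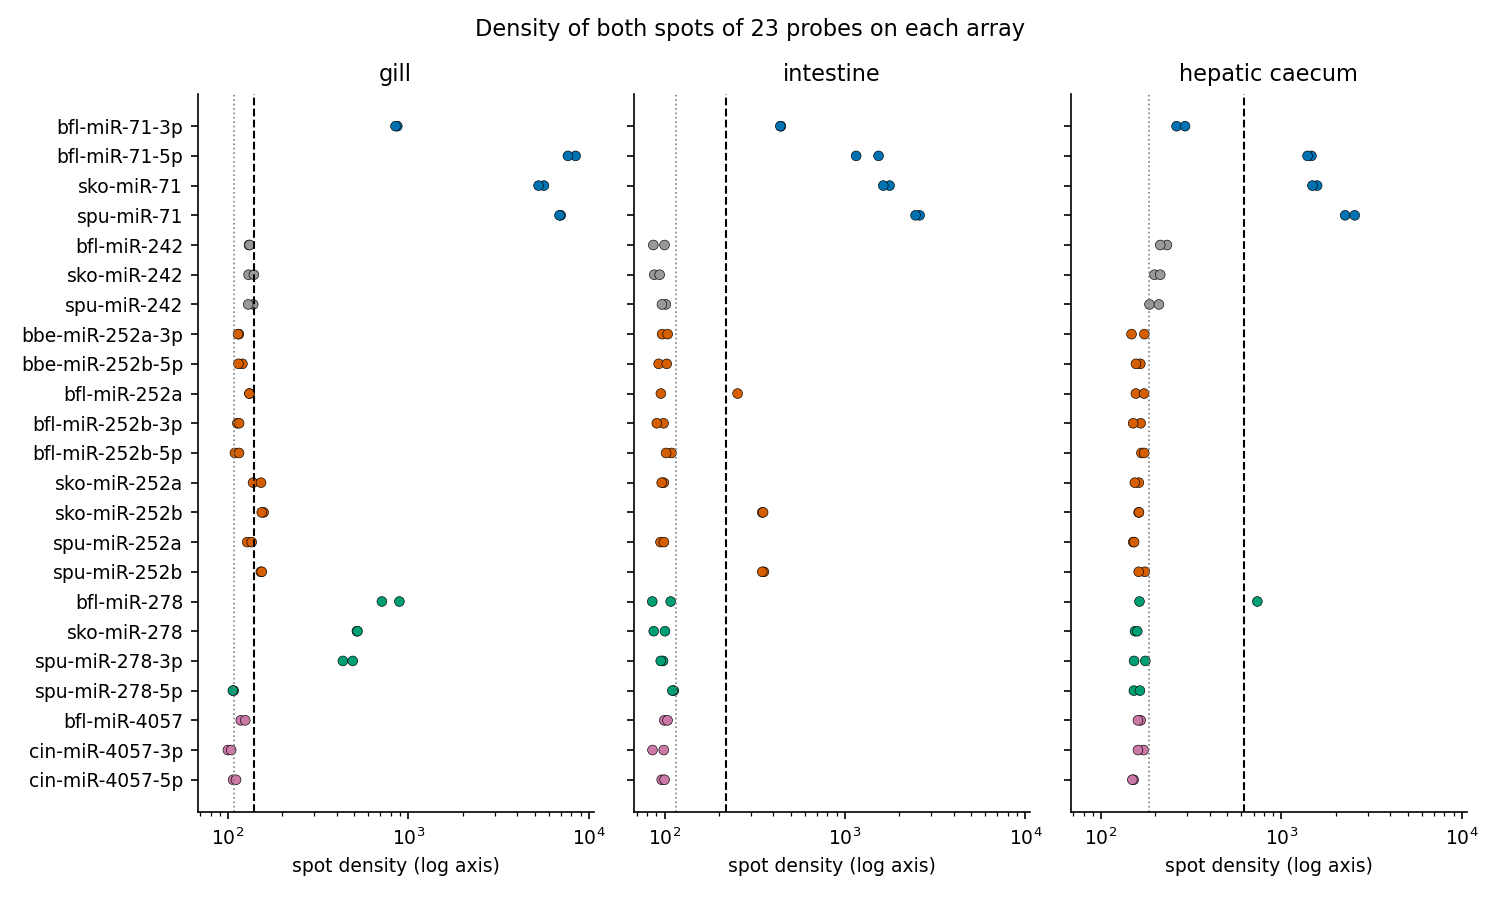
Density of the 2 spots of each of the 23 probes (points, coloured by family) on the gill, intestine and hepatic caecum arrays, on a log axis. Dotted lines mark the mean of the blank spots and dashed lines the detection threshold (139, 220 and 618). The miR-71 probes lie right of the threshold except bfl-miR-71-3p in hepatic caecum, miR-278 stands out in gill, and 2 miR-252b probes stand out in intestine.

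The hepatic caecum densities are used in the reverse order of their probe names, that is, with the grid turned by 180 degrees. The log2 densities of its control spots correlated with the mean of the other arrays at r = 0.977 in that order and at r = 0.261 as deposited, and those of its miRNA spots at 0.870 and 0.006. Under the deposited names 0 of the 23 probes were detected on that array. The limit for that count came from the spots named as blank in that order, so this 0 says nothing about the 23 probes. The log2 densities of repeat spots correlated across probes at 0.995 in gill, 0.974 in intestine and 0.936 in hepatic caecum. Of the tissue marker lists, epithelial miR-200 and miR-141 were detected with 15, 12 and 11 of 19 probes in gill, intestine and hepatic caecum, muscle miR-1 and miR-133 with 14, 4 and 0 of 34, and nervous tissue miR-124 and miR-9 with 8, 1 and 1 of 22. Probes of miR-183, miR-96 and miR-182, known from sensory cells, were detected with 10, 0 and 0 of 29. Over all miRNA probes 27.0%, 11.9% and 7.18% were detected on these arrays, whose thresholds rose in that order. No array gave a detected probe for the markers of vertebrate gut epithelium, miR-192 and miR-194 (0 of 8), or of vertebrate liver, miR-122 (0 of 2). The part of these other tissues in the values below was not tested.

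Of the 5 families, miR-71 was the one detected in all 3 organs. For bfl-miR-71-5p the densities were 8053 ± 558 in gill, 1345 ± 270 in intestine and 1431 ± 50.3 in hepatic caecum. The acorn worm probe sko-miR-71 had 5452 ± 264, 1700 ± 96.1 and 1531 ± 64.7. The sea urchin probe spu-miR-71 had 6929 ± 77.5, 2528 ± 93.2 and 2401 ± 206. All 3 were brightest on the gill array, and the 2 gut arrays held similar densities. Most probes were brighter in gill. Of the 197 detected in both gill and intestine, 41 (20.8%) had the higher density in intestine. The 3p arm, bfl-miR-71-3p, had 858 ± 13.7 in gill and 440 ± 1.98 in intestine. In hepatic caecum it had 277 ± 21.1, below the threshold, so it was not counted as detected there. Its spots, at 262 and 292, passed a threshold set from the blank spots' median, 201 on that array.

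Whether miR-71 was higher in gill or in the gut depended on how the arrays were scaled to each other. The gill array was brighter as a whole. Among the 197 probes detected in both gill and intestine, the median log2 difference of intestine minus gill was -1.62 without normalization between arrays and 0.45 after quantile normalization. For bfl-miR-71-5p the log2 difference was -2.61 without normalization and 0.08 ± 0.31 after it. For sko-miR-71 it was -1.69 and 1.20 ± 0.11, for spu-miR-71 -1.46 and 1.47 ± 0.06, and for bfl-miR-71-3p -0.98 and 1.20 ± 0.02. After quantile normalization 3 of the 4 probes were thus counted as at least 2-fold higher in intestine, and without normalization 3 of the 4 as at least 2-fold lower. Of all 197 probes, 39.6% were higher and 21.8% lower by that much after quantile normalization, and 9.64% and 61.9% without it. No direction between gill and intestine is given for this family.

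The miR-71 probes were also set against the other probes of the same arrays. Without normalization, the differences relative to the median of the 197 probes were -0.99 for bfl-miR-71-5p, -0.07 for sko-miR-71, 0.16 for spu-miR-71 and 0.64 for bfl-miR-71-3p. After quantile normalization they were -0.38, 0.74, 1.01 and 0.74. Of the 197 probes, 126 had a larger difference than bfl-miR-71-5p without normalization, and 48 a larger one than spu-miR-71 after quantile normalization. In the ranking of all 1686 probes by density, in which probes bind with unlike strength so that only the same probe may be followed across arrays, bfl-miR-71-5p was at place 96 in gill, 95 in intestine and 82 in hepatic caecum. The probe spu-miR-71 was at place 101 in gill, 55 in intestine and 60 in hepatic caecum, and sko-miR-71 at 112, 78 and 80.

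The same dependence on scaling held in the hepatic caecum. The log2 difference from gill was 0.55 ± 0.11 for bfl-miR-71-5p, 1.17 ± 0.10 for sko-miR-71 and 1.29 ± 0.13 for spu-miR-71 after quantile normalization. Without normalization these were -2.57, -1.90 and -1.58, beside a median of -1.77 over the 117 probes detected in both. By 2-fold or more, 2 of 3 were higher and 0 lower in hepatic caecum after quantile normalization, beside 41.0% and 9.4% of the 117. Without normalization 0 were higher and 3 lower, beside 10.3% and 74.4%. Between hepatic caecum and intestine the probes lay close together. Their log2 differences were 0.47 ± 0.30 for bfl-miR-71-5p, -0.02 ± 0.10 for sko-miR-71 and -0.18 ± 0.14 for spu-miR-71, beside a median of 0.32 over 116 probes, and 0 of 3 reached 2-fold in either direction, beside 24.1% of the 116 higher and 12.1% lower in hepatic caecum. With arrays centred on 5S rRNA, which rested on 3 probes, all 3 were lower than in intestine by 2-fold or more.

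The miR-71 probes also differed among themselves, by an amount that depended on the normalization. From the lowest to the highest of the 4, the tissue differences of intestine against gill spanned 1.63 in log2 without normalization, 1.39 after quantile normalization and 1.81 after cyclic loess. From gill to intestine the density of bfl-miR-71-5p changed by a log2 difference that was 1.15 ± 0.32 more negative than that of spu-miR-71 without normalization, and 1.39 more negative after quantile normalization. These targets are identical except for the last base. Across the array 23 pairs of probes differed by 1 added base at the 3′ end and were detected in both tissues. The size of the gap between the tissue differences of such a pair had a median of 0.28, a 90th percentile of 1.09 and a maximum of 2.04 in log2 without normalization. The miR-71 pair is 1 of the 23 and lay between that percentile and the maximum. The 2 intestine spots of bfl-miR-71-5p, at 1536 and 1154, also differed more than those of spu-miR-71, at 2594 and 2462. In hepatic caecum against gill the corresponding gap was 0.996 ± 0.17. The 3p arm differed from the 5p arm of B. floridae in the same pair of tissues, with a log2 difference that was 1.63 ± 0.31 less negative in intestine against gill without normalization, and 1.12 after quantile normalization. Between bfl-miR-71-3p and spu-miR-71 the order turned, since the difference of spu-miR-71 minus that of bfl-miR-71-3p was -0.48 without normalization and 0.27 after quantile normalization.

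**Figure D2:**
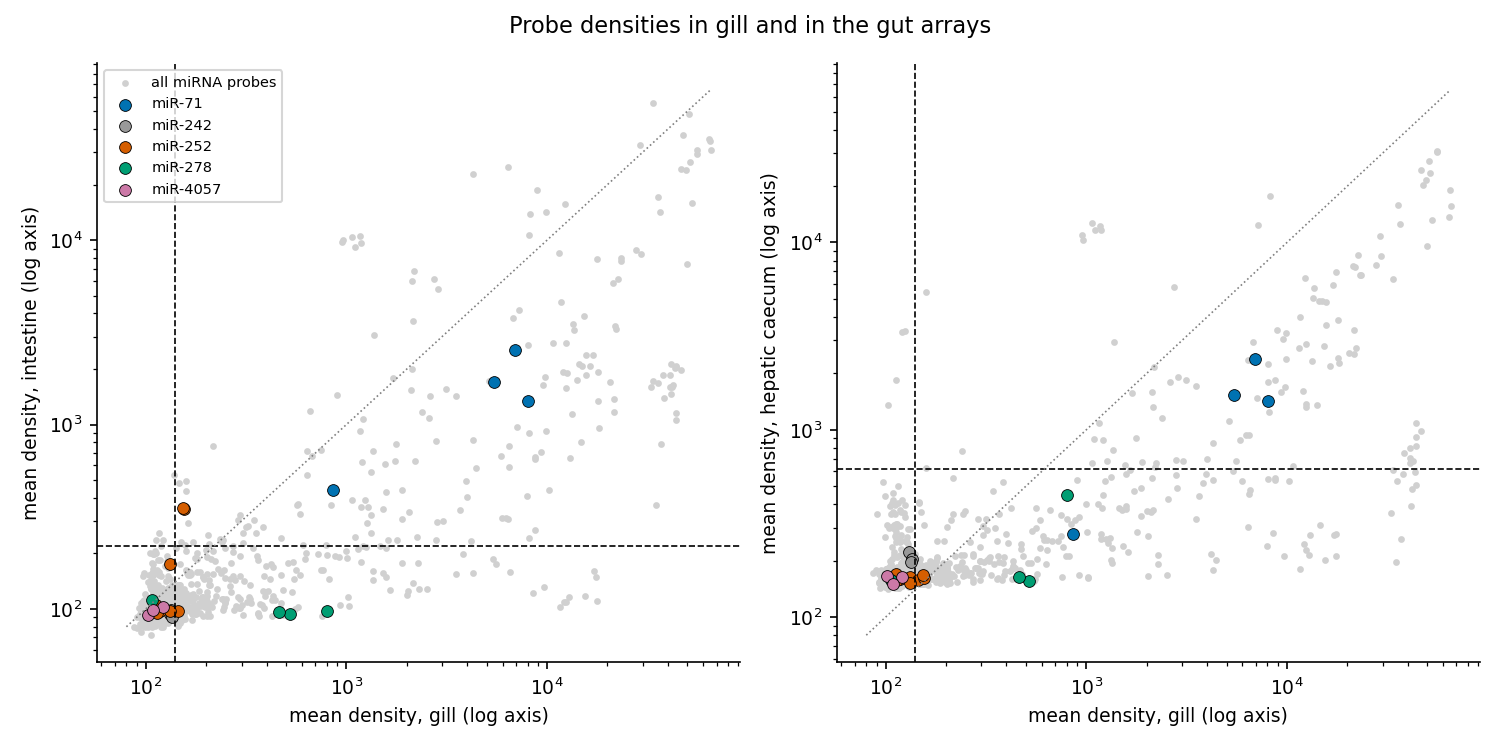
Mean density of each miRNA probe in gill (horizontal log axis) against intestine (left) and hepatic caecum (right; vertical log axes), with all 1686 probes in grey and the 5 families in colour. Dashed lines are detection thresholds and the dotted line marks equal density. The miR-71 probes run with the bulk of bright probes below the dotted line, the miR-278 probes extend along the gill axis at intestine background, and 2 miR-252b probes lie above the dotted line on the left.

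Of the 6 probes detected in both gill and intestine, the acorn worm and sea urchin probes of miR-252b were the 2 with a higher density in intestine. The acorn worm probe sko-miR-252b had 156 ± 2.72 in gill, 350 ± 2.66 in intestine and 162 ± 0.509 in hepatic caecum. The sea urchin probe spu-miR-252b had 153 ± 1.32, 352 ± 5.14 and 168 ± 9.28. Their 4 intestine spots lay between 348 and 355, and their gill densities were just above the threshold of 139. The 8 spots around each of these 4 read at most 118. In hepatic caecum both probes were below the mean of the blank spots, 185, and an intestine density of 350 would not have passed the caecum threshold of 618 either.

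After quantile normalization the log2 difference of intestine minus gill was 2.42 ± 0.03 for sko-miR-252b and 2.45 ± 0.03 for spu-miR-252b, which is 5.34-fold and 5.45-fold. Together with 3 miR-71 probes they were the 5 probes that were higher in intestine by 2-fold or more, out of 6 detected in both tissues, beside 39.6% of all 197 probes. None of the 6 was lower by 2-fold or more (0), beside 21.8% of the 197. Without normalization between arrays the differences were 1.42 and 1.46, or 2.67-fold and 2.75-fold, where 9.64% of the probes were at least 2-fold higher. Both stayed at least 2-fold higher in intestine under each of the other scalings tried, and the largest differences, 3.84 and 3.88, came from setting the median of the probes detected on all arrays equal. Relative to the median of the 197 probes they were 1.96 and 1.99 after quantile normalization and 3.04 and 3.08 without it. In density as scanned, 41 of the 197 probes (20.8%) were higher in intestine. The probes share 22 bases and can bind the same RNA, so they are not separate measurements.

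The other 7 miR-252 probes did not follow, with densities of 112 to 145 in gill, 94.7 to 175 in intestine and 152 to 170 in hepatic caecum. The amphioxus probes of miR-252b, whose targets lack both C11G and G21U, stayed at background. The targets of bfl-miR-252a and sko-miR-252a do have G at site 11, and neither probe was detected in intestine. The part of single bases was not tested. The densities of bfl-miR-252b-5p were 112 in gill, 106 in intestine and 170 in hepatic caecum, and those of bbe-miR-252b-5p were 117, 97.7 and 161. The 3p probes bfl-miR-252b-3p and bbe-miR-252a-3p had 114 and 114 in gill, 94.7 and 100 in intestine and 158 and 161 in hepatic caecum. Of the miR-252a probes, sko-miR-252a was just detected in gill, with spots at 138 and 152 on each side of the threshold of 139, and had 97.7 in intestine. In gill bfl-miR-252a and spu-miR-252a both had 131, just below it. In intestine bfl-miR-252a had 1 spot at 254 and the other at 95.4, so its mean of 175 did not pass, and in hepatic caecum it had 164. Thus no probe with an amphioxus miR-252 sequence was detected on any array (0 of 5). This call depended on the threshold, because the one set from the blank spots' median, 139 in intestine, was passed there by bfl-miR-252a. Against every other family on the array, the miR-252b targets matched at no more than 14 bases without gaps. The closest was xtr-miR-20b, with intestine and gill densities of 106 and 113, at background. RNAs without a probe were not covered, and binding of other RNAs to the miR-252b probes was not tested.

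**Figure D3:**
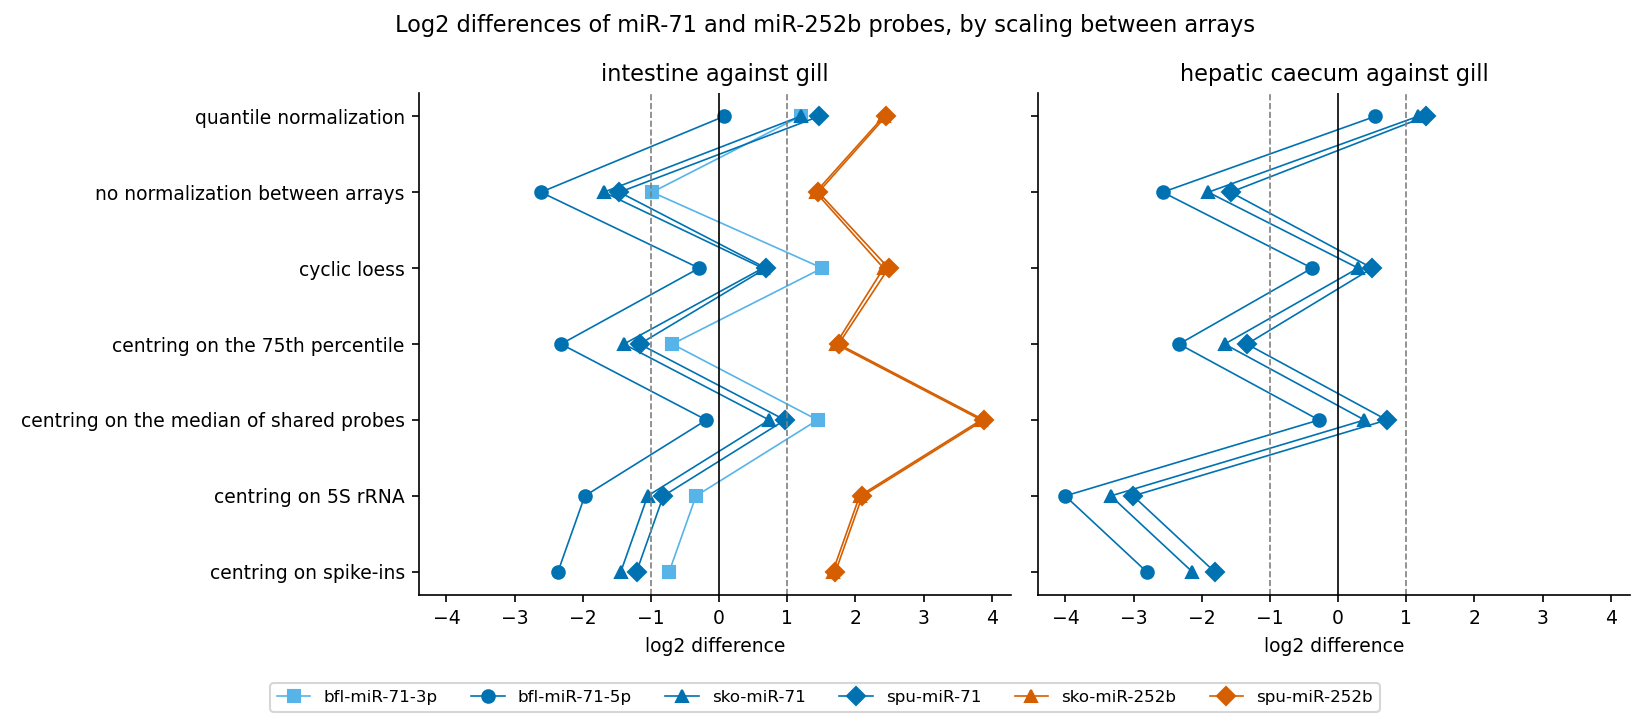
Log2 difference of intestine (left) and hepatic caecum (right) from gill for the probes detected in both tissues of the pair, under 7 ways of scaling the arrays to each other (vertical axis). Lines join the values of 1 probe, and dashed lines mark a 2-fold difference. The miR-252b probes lie right of 1 in every setting (1.42 to 3.88), whereas the miR-71 probes move across 0.

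For miR-278 signal was found in gill. The amphioxus probe bfl-miR-278 read 802 ± 126 in gill and 96.8 ± 16.0 in intestine. The acorn worm probe sko-miR-278 had 520 ± 2.91 and 93.8 ± 9.52, and the sea urchin probe spu-miR-278-3p had 462 ± 41.0 and 96.6 ± 1.97. All 3 were above the intestine threshold of 220 in gill and below the mean of the intestine blank spots, 115, in intestine. At equal density as scanned they would therefore have been detected in intestine. The gill array was brighter as a whole, however. Over 197 probes detected in both tissues the median log2 difference of intestine minus gill was -1.62 without normalization. Equal amounts of RNA need thus not have passed the intestine threshold. The remaining probe of the family, spu-miR-278-5p for the opposite arm, was at 107 in gill, 112 in intestine and 158 in hepatic caecum, at or below the mean of the blank spots on each array.

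In the hepatic caecum sko-miR-278 and spu-miR-278-3p had 157 and 164, below the mean of the blank spots. Their gill densities did not reach the caecum threshold of 618, so equal densities would have gone undetected. The caecum spots of bfl-miR-278 disagreed, at 735 and 163, and their mean of 449 ± 404 did not pass. That mean passed the threshold set from the blank spots' median, 201, but the lower spot did not. Among the 257 probes detected in gill alone, 123 had a gill density, as scanned, above the threshold of the intestine array. The 3 miR-278 probes were among them.

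For a probe detected in 1 tissue only, a lower bound of the difference was taken against the other tissue, at the level of the dimmest detected probe there or at the probe's own level where that was higher. After quantile normalization bfl-miR-278 was at least 1.10-fold higher in gill than in intestine, and no bound above 1 could be given for sko-miR-278 and spu-miR-278-3p. From the first repeat spots alone the bounds were 3.85 for bfl-miR-278, 2.77 for sko-miR-278 and 2.45 for spu-miR-278-3p. From the second they were 2.87, 2.35 and 2.28. There the floor was the dimmest single spot among probes detected by the mean of both spots. A probe with 1 dim spot can lower that floor to background, so these bounds cannot be set beside those from both spots. Without normalization the bounds were 4.24, 2.70 and 2.38. They were 3.56, 2.27 and 2.00 with spike-ins, 2.71, 1.73 and 1.52 with 5S rRNA and 1.51, 1.70 and 1.49 with cyclic loess. With equal medians of shared probes none could be given against intestine for any of the 3. Against hepatic caecum no bound could be given for any of the 3 after quantile normalization, with cyclic loess or with equal medians of shared probes. Without normalization the bounds there were 1.71 for bfl-miR-278 and 1.09 for sko-miR-278, and none for spu-miR-278-3p. They were 2.01, 1.28 and 1.13 with spike-ins. With 5S rRNA, which rested on 3 probes, the bounds were 4.60, 2.93 and 2.58. The 3 targets share their first 8 bases and can bind the same RNA.

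The miR-242 and miR-4057 families gave no detected probe. For miR-242 the 3 probes, bfl-miR-242, sko-miR-242 and spu-miR-242, had gill densities of 131, 134 and 134, just below the threshold of 139 and from 2.25 to 2.55 blank-spot SDs above the blank mean. In intestine they were between 90.8 and 99.2, below the blank mean, and in hepatic caecum at 222, 205 and 197, above the blank mean of 185. They thus lay together on each array. With the threshold set from the blank spots' median instead, at 201 in hepatic caecum, bfl-miR-242 and sko-miR-242 passed there. For miR-4057, with 1 amphioxus and 2 Ciona probes, the 3 probes had between 102 and 121 in gill, between 92.4 and 102 in intestine and between 150 and 166 in hepatic caecum. Its amphioxus and tunicate targets differ by G9U, G10U and C11U.

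These families were then set beside 2 other sets. In gill 43.5% of the 23 probes were detected, beside 51.0% of 147 probes of 72 families with amphioxus probes only and 58.5% of 427 probes of 34 families with amphioxus and vertebrate (or xbo) probes. In intestine the shares were 26.1%, 27.9% and 31.4%, and in hepatic caecum 13.0%, 15.0% and 20.8%. Counted by family, 3 of 5 had a detected probe in gill, beside 42 of 72 and 32 of 34. Probes of 1 family are not independent, and 23 probes give a coarse share.

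**Figure D4:**
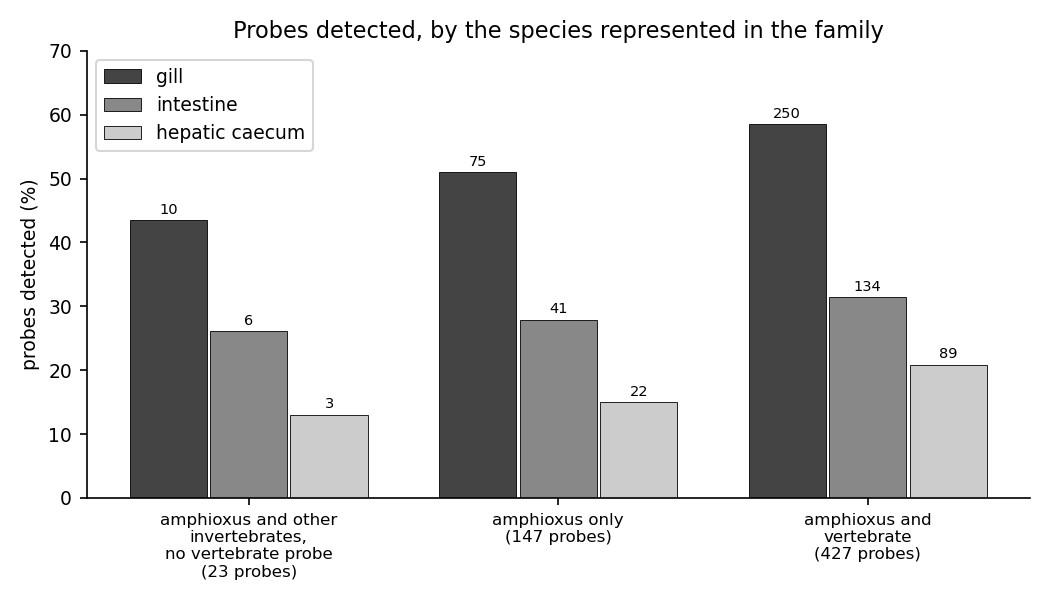
Share of probes detected (vertical axis, percent) in gill, intestine and hepatic caecum for the 5 families with amphioxus and other invertebrate probes (23 probes) and the 2 other sets of families. Numbers on the bars count detected probes. In each set gill has the highest share and hepatic caecum the lowest.

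Within the 5 families, amphioxus sequences were not the ones detected most often. In gill 3 of 10 amphioxus probes (30.0%) and 7 of 13 other probes (53.8%) were detected. In the families with amphioxus and vertebrate probes the corresponding shares were 80.6% of 103 and 51.5% of 324. In intestine the 5 families had 2 of 10 and 4 of 13 detected, and in hepatic caecum 1 of 10 and 2 of 13. The probes of miR-252 make up 5 of the 10 amphioxus probes, and none of these was detected. The detected miR-252 probes, sko-miR-252a, sko-miR-252b and spu-miR-252b, were all of other species. Outside miR-252 the amphioxus probes had the larger share detected in gill and intestine, so the order there rests on that family.

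A pair of families lay just outside the rule because each had probes of a single excluded prefix. The miR-281 family was dropped for a lamprey probe. It gave gill signal with 7 of 8 probes and none in intestine or hepatic caecum (0 and 0), with bfl-miR-281 at 12904 ± 826 in gill, 116 ± 4.48 in intestine and 215 ± 4.10 in hepatic caecum. The miR-2013 family was dropped for its xbo probe, although this prefix is the one used for the marine worm Xenoturbella, which is no vertebrate. The probe bfl-miR-2013 had 2190 ± 253 in gill, 632 ± 22.3 in intestine and 630 ± 11.8 in hepatic caecum, where it was just above the threshold. With miR-2013 included, 12 of 27 probes of 6 families would have been detected in gill, 7 in intestine and 4 in hepatic caecum.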

How the data were processed

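Median densities of 3968 spots per array were taken from the scanner files, which the authors deposited without background subtraction, per the file headers and the blank spots. The authors' processed intensity table, whose background correction and scaling are not given in the sources used here, served as an alternative. It was deposited with medians over the miRNA probes of 6.88, 5.33 and 5.41 for gill, intestine and hepatic caecum, and its caecum column follows the deposited names. All columns used were mapped to samples (0 unmapped). Hepatic caecum densities were read with the grid turned by 180 degrees. Densities were corrected with normexp (offset 50), which understates folds of dim probes, converted to log2, averaged over the 2 spots of a probe and quantile-normalized over 3 arrays with limma 3.58.1 (R 4.3.3), control spots being used for the background fit alone. Later steps used pandas 2.3.3, matplotlib 3.10.9 and numpy 2.4.6 under Python 3.11.15. The steps from normexp to quantile normalization were tested on simulated data, with an outcome that is not given here. A difference was called at 2-fold among probes detected in both tissues. SDs of differences combine the log2 spot SDs of both arrays before normalization between arrays. Other scalings, detection rules, repeat spots and grid names were tried. The number of arrays, 1 per tissue, limits the precision.

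The families, gene lists and rules were chosen with earlier results of these data known. By rule, all families were named, probes of families with a detected probe were given in all tissues, in full for the brightest amphioxus probe of each arm and the brightest of another species and otherwise by value or range, and the probes with the largest differences of each pair were named. Rules and alternatives were otherwise kept, except that counting xbo as no vertebrate was added after seeing the data.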

Additional observations from a re-analysis of the deposited data

How the results depend on the processing

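No paired analysis was possible because each tissue had 1 array, and no replicate could be left out. Counts of detected probes among the 23 moved with the rule. A fixed density over 500 gave 6 in gill and 3 in intestine, where 13.6% and 7.95% of all probes passed. A threshold set from the blank spots' median gave 7 in hepatic caecum, where 19.0% of all probes passed instead of 7.18%. The deposited names gave 0 there, against a limit from the spots named as blank in that order, so this 0 cannot be read. In intestine against gill, the 5 probes at least 2-fold higher became 2 without normalization between arrays, with centring on the 75th percentile, on 5S rRNA and on spike-ins, and 3 with cyclic loess, equal medians of shared probes and the deposited table. The 0 lower became 3 without normalization, with the 75th percentile, with spike-ins and with no filter on dim probes, and 2 with 5S rRNA. With no filter, here and below, counts are out of all 23 probes, undetected ones included, and not of those detected in both tissues. In hepatic caecum against gill, the 2 higher became 0 under the 6 other scalings. They were also 0 with the deposited names and the deposited table, where 0 probes could be tested. The 0 lower became 3 without normalization and with the 75th percentile, 5S rRNA and spike-ins, and 2 with no filter. In hepatic caecum against intestine, the 0 higher became 2 with no filter. The 0 lower became 3 with 5S rRNA, 1 of 4 probes with the threshold from the median and 4 with no filter.

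The sign of bfl-miR-71-5p turned under all 6 other scalings in both gut tissues against gill, with log2 differences of -2.61 to -0.19 in intestine and -4.00 to -0.28 in hepatic caecum, and for intestine also with the second repeat spot (-0.18) and the deposited table (-0.51). The other miR-71 probes turned under 4 scalings, given here in the order no normalization, 75th percentile, 5S rRNA and spike-ins. From gill to intestine the log2 differences were -0.98, -0.69, -0.34 and -0.73 for bfl-miR-71-3p, -1.69, -1.40, -1.05 and -1.44 for sko-miR-71, and -1.46, -1.17, -0.82 and -1.21 for spu-miR-71. From gill to hepatic caecum they were -1.90, -1.66, -3.33 and -2.14 for sko-miR-71 and -1.58, -1.34, -3.01 and -1.81 for spu-miR-71. The cause was not tested. The probes sko-miR-252b and spu-miR-252b kept their sign and exceeded 2-fold under all 10 alternatives tried for intestine against gill, from 1.42 to 3.87 for sko-miR-252b and from 1.46 to 4.06 for spu-miR-252b, although their gill densities lay close to background. With the threshold from the blank spots' median, bfl-miR-252a was detected in intestine, which made 7 probes there, beside 19.0% of all probes. The bound of bfl-miR-278 in gill against intestine was from 1.04-fold to 4.24-fold where one could be given, and none could be given with equal medians of shared probes. The hepatic caecum threshold, 618, limits what can be said of dim probes there.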
